A study of Rattus norvegicus with 2 samples.

Results

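The solute carrier genes of the rat femur transcript annotation are described here. Solute carriers are membrane proteins that move amino acids, sugars, ions, nucleosides, vitamins and many other small molecules across the plasma membrane and the membranes of organelles. Most of them work as exchangers, as cotransporters driven by the sodium or proton gradient, or as facilitated carriers, and family numbers group proteins of related sequence. In bone they bring phosphate and amino acids to osteoblasts, move protons and bicarbonate in osteoclasts, and serve the red cell precursors and macrophages of the marrow. The genes were chosen by name alone, as every gene name that starts with Slc followed by a family number, the letter a and a member number, or with Slco and a number, after removal of endings for predicted or mapped genes. By this rule 136 of 12567 gene names and 387 of 43391 transcripts were solute carrier genes and transcripts.

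Total RNA was sequenced from femurs of female Wistar rats of wild-type (WT) genotype whose ovaries had been removed on both sides (OVX) or left in place in a sham operation (SHAM), in search of genes that change in osteoporosis. The labels cover 1 OVX and 1 SHAM sample, both at week 16, with the further words Old for the former and Young for the latter, so that age and operation cannot be told apart from the labels, and the study's methods describe several sequenced rats per operation and a shorter feeding period than the labels' time; a whole ground femur also holds marrow, vessels and attached tissue. The deposited files give positions and attributes of assembled transcripts for the series as a whole, with no count, level or coverage, so the depth is unknown and no difference between OVX and SHAM could be computed. Each transcript is recorded as found in 1 or 2 assemblies, called the first and the second assembly here, and neither could be assigned to a group or a rat. Each transcript also has a class from its comparison with the reference annotation. A full chain has every intron of a reference transcript, a contained transcript is a piece of one, and a new junction marks a splice junction that the matched reference transcript does not have. The reference transcript can itself be short, so a full chain need not cover the whole gene. A transcript model shows that reads covered those exons and says nothing on how much RNA was present.

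The 136 genes belonged to 39 of the 51 solute carrier families that the same name rule finds in the current rat reference (RefSeq, GRCr8). No gene carried a current name of the other 12 families. Among these 12, genes of families Slc46, Slc50, Slc52 and Slc66 were present under older names. All 136 genes lay on 1 locus each, and all 136 lay on the chromosome on which the current reference places the gene. Of these genes, 37 had 1 transcript, 34 had 2, 26 had 3 and 15 had 6 or more, up to 8, with a median of 2, which was also the median of the other named genes. Transcripts of both assemblies were found for 89 of the 136 genes (65.4%), compared with 76.5% of all named genes and 76.6% of the 12431 other named genes. A further 24 genes were in the first assembly only and 23 in the second only. A full reference chain was assembled for 32 genes (23.5%), compared with 38.6% of all named genes. At least 1 identical transcript was present in both assemblies for 29 genes (21.3%), compared with 30.8% of all named genes. Solute carrier genes were thus below the background in all 3 shares. These shares describe the annotation, since genes do not replicate a condition, and they were not tested.

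By transcript, contained pieces were the largest class. Of 387 solute carrier transcripts, 261 (67.4%) were contained, 80 (20.7%) had a new junction, 37 (9.56%) had a full chain and 9 (2.33%) had another class. For the other named genes the same shares were 56.0%, 25.6%, 15.5% and 2.89%. Contained pieces were the only models of 64 solute carrier genes (47.1%), compared with 26.9% of other named genes. The pieces themselves were of ordinary size, with a median of 442 bp against 443 bp. The full chains that were assembled were long, with a median of 2136 bp and 6 exons against 1478.5 bp and 4 exons. Some covered only part of their gene. That of Slc25a3, for example, had 2 exons and 689 bp, beside a shared model of 8 exons. Among full chains, 18 of 37 (48.6%) were identical in both assemblies, against 50.3% for other genes. Of the contained transcripts 4.60% were identical in both, against 4.85%. The solute carrier set therefore held fewer full chains, whereas the share found in both assemblies was close to that of other genes within the class of full chains and within that of contained pieces.

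**Figure D1:**
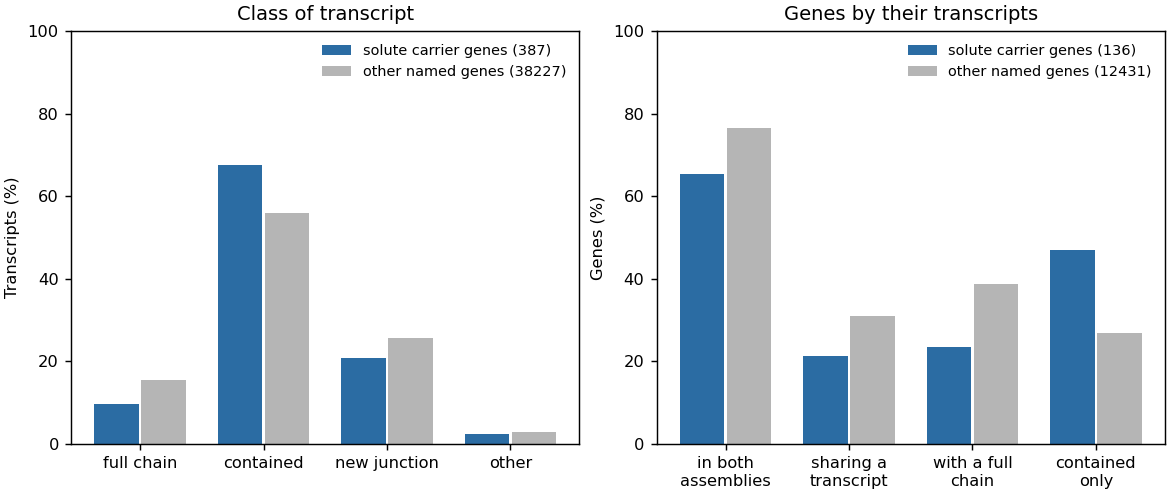
The left panel gives the percentage of transcripts in each class and the right panel the percentage of genes with each property, for solute carrier genes (blue) and other named genes (grey), with their numbers in the legends. Contained transcripts make up 67.4% of solute carrier transcripts and 56.0% of the others, and the blue bar is the lower in the first 3 properties on the right.

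The lower share in both assemblies was seen mainly among genes with 1 or 2 transcripts. Of solute carrier genes with 1 transcript, 7 of 37 (18.9%) were in both assemblies, against 40.6% of other genes with 1 transcript. A gene with 1 transcript is in both only if that transcript is identical in both. With 2 transcripts the values were 19 of 34 (55.9%) and 82.4%, and with 3 transcripts they were 25 of 26 (96.2%) and 95.6%. With 4 transcripts they were 13 of 14 (92.9%) and 99.3%. At 3 or more transcripts nearly all genes were in both, so little difference could appear there. The share also moved with the kind of name. Among genes with a plain name it was 73 of 99 (73.7%) for solute carriers and 82.2% for others, and among genes whose name ends in predicted it was 16 of 37 (43.2%) and 76.7%. The part of either property in the difference was not tested. The 47 genes in 1 assembly only had a median of 496 covered exon bases, against 1918 for the 89 genes in both. Covered bases of a gene in both join 2 assemblies, so part of this gap arises by construction. Of the 47 genes, 32 had contained pieces alone. A full chain was present in 3 of the 47, namely Slc11a1, Slc22a15 and Slc25a2. The same counts for other named genes of 1 assembly are not given, so these values describe the set only.

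Genes without an identical transcript mostly still overlapped. Of the 89 genes in both assemblies, 60 (67.4%) shared no transcript, against 59.6% of the other named genes in both. In 51 of the 60 the exons of the assemblies overlapped. In the other 9 (15% of the 60), Slc12a9, Slc1a4, Slc23a3, Slc38a6, Slc4a11, Slc4a7, Slc7a11, Slc7a2 and Slc8a1, the exons of the assemblies had no base in common. Among other named genes in both assemblies without a shared transcript, this share was 8.59%. At the other end, 11 genes had the same exon bases in both assemblies, and these were Slc16a1, Slc1a5, Slc25a11, Slc25a4, Slc35a4, Slc3a2, Slc40a1, Slc43a1, Slc5a3, Slc7a5 and Slc9a3r1. A shared transcript is recorded once, with 1 set of positions, so its exon bases count in both assemblies by construction. Of the 11 genes, 7 had a shared transcript as their only model. The share of other named genes with the same exon bases in both assemblies is not given. Over all 136 genes, 107179 of 223841 exon bases (47.9%) and 402 of 865 splice junctions (46.5%) were present in both assemblies, compared with 55.3% and 53.7% for other named genes. Of 85 solute carrier genes with at least 2 models in 1 assembly, 73 (85.9%) lay there in 2 or more pieces that did not overlap, compared with 78.1% of other genes.

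**Figure D2:**
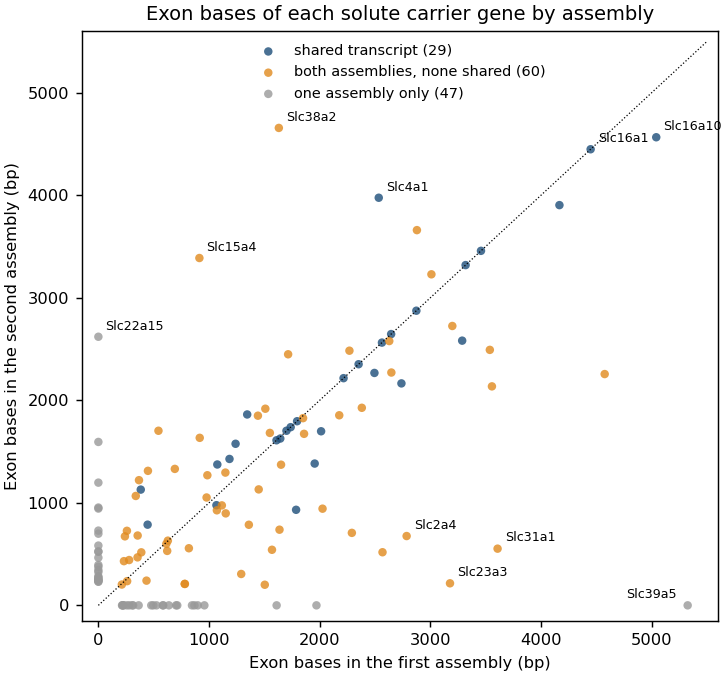
Each point is a solute carrier gene, with the exon bases covered in the first assembly on the x axis and in the second on the y axis (bp), and the dotted line marks equal values. The 29 genes that share a transcript (blue) lie mostly near the line, the 60 in both without a shared transcript (orange) spread to both sides, and the 47 of 1 assembly (grey) lie on the axes. A shared transcript has 1 set of positions for both assemblies, so its exon bases are equal by construction.

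Genes were grouped by family number, so a group can hold members with another substrate. Amino acid transporters formed the largest group, with 30 genes, of which 25 were in both assemblies and 8 had a full chain. Among them was Slc3a2, the heavy chain that brings several amino acid exchangers to the cell surface (chromosome 1, 203116707 to 203131961, minus strand). This and other positions without a named build are as the files give them, and their genome build is uncertain. Slc3a2 had 2 transcripts, both full chains and both identical in the 2 assemblies, one of 10 exons and 2770 bp and the other of 9 exons and 2516 bp. The models differed in their first exons, and their starts lay 8523 bp apart. The current reference also has 2 promoters for Slc3a2, with windows 8394 bp apart on another genome build. Slc7a5, the light chain that pairs with Slc3a2 to exchange large neutral amino acids such as leucine, had a single model, a full chain of 10 exons and 3458 bp that was identical in both assemblies (chromosome 19, 49180586 to 49208780, minus strand). The promoter windows of the pair are shown because the Slc3a2 models bear on both of its starts. Each runs from 250 bases before to 50 bases after the start in RefSeq GRCr8, 5′ to 3′ on the gene's strand, and capitals mark matches on either strand to the core of a GC box, spelled GGGCGG, or to the TATA box, which is spelled TATAAA; in the second window the GC box core lies on the opposite strand and so reads as its reverse complement. The first is the window of the downstream start at chr1:215039621-215039920, minus strand, the second that of the upstream start at chr1:215048015-215048314, minus strand, and the third lies at chr19:66872363-66872662, minus strand.
Slc3a2 downstream start: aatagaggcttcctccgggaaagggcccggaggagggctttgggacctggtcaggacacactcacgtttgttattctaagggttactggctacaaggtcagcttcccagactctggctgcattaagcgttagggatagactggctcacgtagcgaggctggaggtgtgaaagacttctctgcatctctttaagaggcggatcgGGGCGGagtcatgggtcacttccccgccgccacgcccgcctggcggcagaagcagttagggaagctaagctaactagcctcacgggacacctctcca
Slc3a2 upstream start: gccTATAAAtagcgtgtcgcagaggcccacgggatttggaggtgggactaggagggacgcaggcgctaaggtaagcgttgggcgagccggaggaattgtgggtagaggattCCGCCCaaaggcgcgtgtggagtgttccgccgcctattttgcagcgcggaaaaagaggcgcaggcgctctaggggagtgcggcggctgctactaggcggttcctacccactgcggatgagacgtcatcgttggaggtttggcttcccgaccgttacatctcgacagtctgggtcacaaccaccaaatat
Slc7a5: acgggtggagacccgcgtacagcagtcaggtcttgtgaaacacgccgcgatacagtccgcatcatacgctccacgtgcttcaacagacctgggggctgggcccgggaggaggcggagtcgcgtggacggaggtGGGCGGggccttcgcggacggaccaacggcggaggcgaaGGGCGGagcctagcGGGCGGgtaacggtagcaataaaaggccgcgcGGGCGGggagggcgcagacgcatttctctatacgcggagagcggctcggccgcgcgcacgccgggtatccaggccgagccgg

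The downstream Slc3a2 window held 1 GC box core and no TATA box, the upstream window 1 of each, and the Slc7a5 window 4 GC box cores and no TATA box. In the upstream window the TATAAA letters lie at the 5′ end, far from the start. The CCAAT motif, which was also searched on both strands, was in none of the 3, and the matches did not overlap each other. Of all 27457 promoter windows of the reference table, 34.9% held the GC box core, 14.3% the TATA box and 37.7% the CCAAT motif. For the 6108 protein-coding genes with both a transcript and a window, the shares were 63.4%, 6.52% and 37.3%. A match to these letters is a description of the window and not a binding site.

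The other light chains that are known to pair with Slc3a2, chosen after the values were seen, were all present but in pieces. Slc7a8 had contained pieces covering 1504 bases in the first assembly and 201 in the second. Slc7a7 covered 383 and 1129 bases, and Slc7a10 covered 435 and 241. Slc7a11, the cystine and glutamate exchanger, had contained pieces of 260 bp and 236 bp, 1 per assembly, with no base in common. Slc7a6 was in the first assembly only, with 525 bases. Slc1a5, a glutamine transporter, had a single model as complete as that of Slc7a5, a full chain of 8 exons and 2646 bp in both assemblies.

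Slc43a1, which transports branched-chain amino acids, had the shared full chain with the most exons of all solute carrier genes, with 15 exons and 2563 bp. A second model with 15 exons and 2319 bp was in the second assembly and another with 14 exons and 1961 bp in the first, and both had a new junction. Slc38a2, a sodium-coupled glutamine and alanine transporter, had a full chain of 16 exons and 4657 bp in the second assembly, and in the first a contained piece of 14 exons and 1631 bp. Slc38a1, a close relative on the same strand 48762 bp away, had 6 models and no full chain. One of these models, with another kind of exon overlap, lay across a new gene on the opposite strand over 283 bp. Slc6a4, the serotonin transporter, which platelets also carry, had 7 contained pieces, 3 in the first assembly and 4 in the second, of 395 to 609 bp. The pieces of Slc6a4 had 1248 exon bases in common.

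The sugar transporter families were represented by 9 genes, among them Slc5a6, which carries vitamins, of which 6 were in both assemblies and 2 had a full chain. Slc2a3, a high-affinity glucose transporter, had a shared full chain of 10 exons and 3904 bp, and in the first assembly a model with a new junction over an intron of 50552 bp. Slc2a1, the basal glucose transporter, had 3 contained pieces that covered 367 bases in the first assembly and 1221 in the second. Slc2a4, the insulin-responsive transporter of muscle and fat, had 6 contained pieces, with 2786 exon bases in the first assembly and 676 in the second, all of which lay within the former. Slc5a3, the myo-inositol cotransporter, had 1 shared full chain with a single exon of 2216 bp. Slc2a6 had a model in the second assembly that retained an intron of 263 bp.

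Of the 6 monocarboxylate genes, 3 were in both assemblies. Slc16a1, the lactate and pyruvate carrier, had a single shared full chain of 5 exons and 4449 bp. Slc16a10, an aromatic amino acid transporter of that family, had 2 shared full chains, of 6 exons and 3768 bp and of 3 exons and 1940 bp, and a single-exon model of 476 bp in the first assembly that was classed as a possible fragment of unspliced RNA. Slc16a3, which exports lactate, had 3 contained pieces and 1644 and 1627 exon bases, 1 of the pieces being shared. The 2 dicarboxylate genes, Slc13a3 and Slc13a5, were each in 1 assembly only.

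No gene of the chloride, bicarbonate and sulfate group had a full chain. Of its 11 genes, 6 were in both assemblies and 8 had contained pieces only. Slc4a1, band 3 of the red cell membrane, which exchanges chloride for bicarbonate, had 7 models (chromosome 10, 86018849 to 86033032, minus strand), 5 of them with a new junction, and 3 were shared. A shared pair of 11 exons each, 1712 bp and 1715 bp long, differed by 3 bp at 1 exon end. The 4 models over the 5′ part of Slc4a1 opened with 3 different first exons. In addition, the second assembly had a contained single-exon model of 1565 bp at 86018849 to 86020413, and the first assembly had a model over exactly the same interval on the opposite strand, where it is recorded as antisense. Slc4a2, the anion exchanger that osteoclasts use when they acidify the bone surface, had 8 models, 4 in each assembly, with 3010 and 3229 exon bases, of which 2370 were in common. The longest had 12 exons and 1935 bp, and 1 was classed as retaining an intron. Slc12a4, a potassium and chloride cotransporter, had 6 contained pieces, of which the one at the 5′ end, 345 bp long, was shared. Slc26a2, the sulfate transporter needed for cartilage matrix, had 1 contained piece of 1594 bp in the second assembly only.

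Among the 10 genes of sodium-proton and calcium exchange, 5 were in both assemblies and 2 had a full chain. Slc8a1, a sodium and calcium exchanger, had 388 and 517 exon bases in the assemblies with none in common. The 5 genes of phosphate and sugar phosphate transport, 3 of them in both assemblies, included both type III phosphate cotransporters, which supply phosphate to mineralising cells. Slc20a1 (chromosome 3, 115253316 to 115266986, plus strand) had 6 contained pieces, 4 in the first assembly and 2 in the second, with 2629 and 2578 exon bases and 2215 in common (74.0% of all covered bases). Slc20a2 had 5 models with 1151 and 897 exon bases, of which 246 were in common (13.7%). Slc37a4, the glucose 6-phosphate carrier of the endoplasmic reticulum, had a shared full chain of 2 exons and 1049 bp and 3 contained pieces.

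Metal transporters made up 2 groups. Of the 11 zinc transporter genes, 7 were in both assemblies and 1, Slc39a1, had a full chain. Slc39a1 also had the single model of the set that contained a whole reference transcript within itself. Slc39a5 had the largest covered length of all, from a single exon of 5326 bp in the first assembly only, classed as retaining introns, which overlapped exons of Ankrd52 on the opposite strand over 2265 bp. Of the 6 genes for iron, magnesium and copper, 4 were in both assemblies and 3 had a full chain. Slc40a1, ferroportin, the iron exporter of macrophages, had a single shared full chain of 8 exons and 3319 bp. Slc11a1, an iron and manganese transporter of phagosomes, had 2 models, of 11 and 6 exons, both in the first assembly. Slc11a2, its relative that imports iron in many cells, had 3 contained pieces with 916 and 1634 exon bases, and those of the first assembly all lay within those of the second. Slc31a1, the copper importer, had a full chain of 5 exons (3608 bp) in the first assembly and a contained piece of 553 bp in the second.

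The mitochondrial carriers, Slc25, were the largest family, with 16 genes and 37 transcripts, of which 10 genes were in both assemblies and 5 had a full chain. Slc25a3, the mitochondrial phosphate carrier, had 4 models (chromosome 7, 22738265 to 22745916, minus strand). A model of 8 exons shared by both assemblies held an exon of 122 bp at 22743823 to 22743944. A model of the first assembly and another of the second held an exon of 125 bp at 22744110 to 22744234 in its place, and no model held both. The gene is known for a pair of mutually exclusive exons, one of which is used mainly in heart and skeletal muscle. Slc25a4, the ADP/ATP carrier of heart and skeletal muscle, had a shared full chain of 4 exons and 1796 bp, and in the second assembly a model with a new junction over an intron of 690 bp. Slc25a11, the oxoglutarate and malate carrier, had a single shared full chain of 8 exons and 1738 bp. Slc25a10, a dicarboxylate carrier, had 3 full chains, 1 of them shared.

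**Figure D3:**
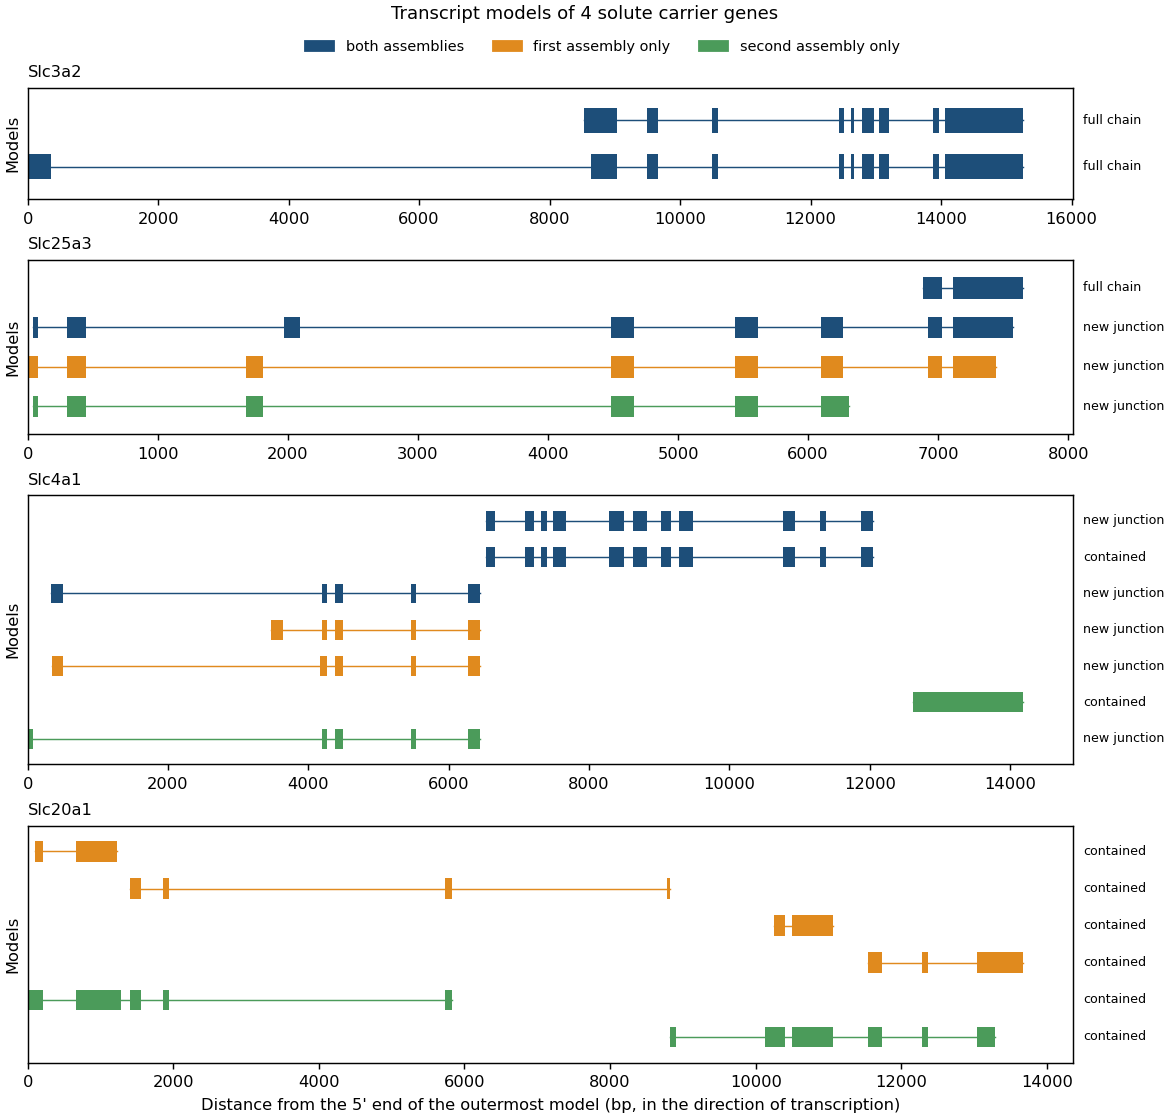
Transcript models of Slc3a2, Slc25a3, Slc4a1 and Slc20a1 are drawn to scale, with exons as boxes and introns as lines against the distance from the 5′ end of the outermost model (bp), coloured by the assemblies that hold them and with the class at the right. Slc3a2 has 2 shared full chains with different first exons, Slc25a3 uses either of 2 neighbouring exons, and Slc20a1 is covered by 6 contained pieces.

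Of the 7 nucleoside and nucleotide sugar genes, 4 were in both assemblies. Slc29a1, an equilibrative nucleoside transporter that is abundant in red cells, had 7 models, none of them shared. Its full chains had 6 exons and 1034 bp (first assembly) or 2 exons and 773 bp (second assembly). Slc29a2, its paralog, had 6 models and no full chain. Slc29a3, the lysosomal nucleoside transporter, had a shared model of 3 exons and 474 bp with a new junction. Shared transcripts with a new junction were rare. They were 4 of the 80, against 5.77% for other genes, with 2 in Slc4a1 and 1 each in Slc25a3 and Slc29a3. Of the 10 genes for organic ions, drugs and bile acids, 6 were in both assemblies, and 1, Slc22a15, had a full chain, in the second assembly only. Slco2b1, an organic anion transporter, had 7 models, of 271 to 964 bp, with 2269 and 2484 exon bases and 1950 in common. Slco4c1 had 3 models in the second assembly only. Slc22a17, the receptor for a siderophore-binding lipocalin, had a model that retained an intron of 155 bp.

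Fatty acid and choline transporters were in both assemblies for all 4 genes found. Slc27a1, a fatty acid transporter of muscle and fat, had 5 models, among them one of 13 exons and 3075 bp with a new junction in the first assembly and a shared full chain of 2 exons and 1529 bp. Slc44a2, a choline transporter-like protein, had 2 models of 22 exons in the second assembly, the most exons of any solute carrier model, and 3 contained pieces in the first. Of the 3 genes of the vitamin and folate families, 2 were in both assemblies and none had a full chain, and Slc23a3, of the ascorbate transporter family, shared a locus with another gene name and overlapped a gene on the opposite strand over 588 bp, and it had a model of 12 exons (3178 bp) in the first assembly with a new junction. The urea transporter Slc14a1, which is also the Kidd antigen of red cells, had a full chain of 9 exons (3538 bp) in the first assembly, and its neighbour Slc14a2 a single piece of 583 bp, also in the first. The remaining genes were Slc45a3, with a piece of 364 bp, and 3 genes that are only named after a transporter. Of these, the scaffold protein Slc9a3r1 had a shared full chain of 6 exons and 1610 bp, Slc9a3r2 had a full chain of 6 exons, and Slc4a1ap had 8 models, 5 with a new junction, none shared.

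Of the 367 current protein-coding symbols that fit the name rule, 155 (42.2%) had a transcript under the current or an older name. The share of all 23154 protein-coding symbols was 32.6%. The largest share among groups of at least 5 symbols was that for iron, magnesium and copper, with 6 of 8 (75.0%). Organic ion, drug and bile acid transporters had 11 of 46 (23.9%). The vesicular transmitter group, which here means families Slc18 and Slc32 only, had 0 of 4. Family Slc17 was counted with phosphate transport. Older names added 21 genes that the choice by name left out, 16 of them in both assemblies and 4 with a full chain. The rule also leaves out the lettered Slc35 subfamilies, and with these added to the 136 genes 146 were found. Since 4989 of the 12567 gene names (39.7%) match no symbol, a gene without a transcript under a matched name can be present under another name. All 136 genes chosen by name match a symbol, so the unmatched names all lie outside that choice. Naming can thus lower either share, and its part in 42.2% against 32.6% was not tested.

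**Figure D4:**
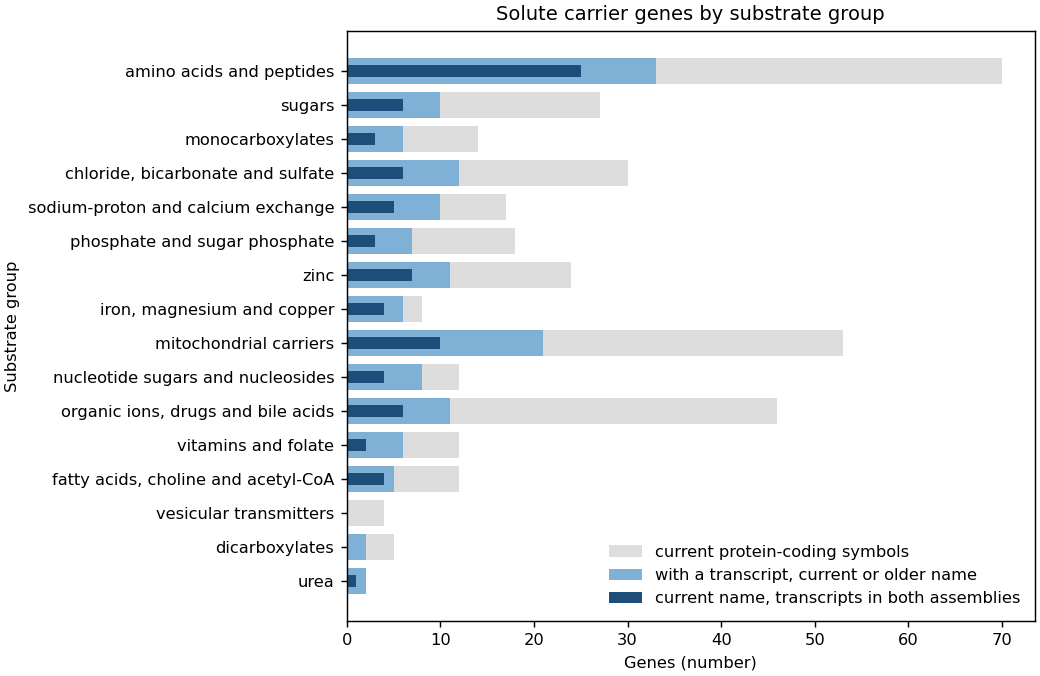
For each substrate group, bars give the number of current protein-coding solute carrier symbols (grey), of those with a transcript under a current or older name (light blue), and of genes under a current name with transcripts in both assemblies (dark blue). Amino acid transporters have the most genes in both assemblies, 25, and the vesicular transmitter group (families Slc18 and Slc32 only) has none with a transcript.

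Lists of solute carriers that mark cell types were compared with the annotation. The lists were written by hand with earlier results of these data known, so their counts are a description and no contrast between lists was tested. For all solute carrier symbols the share with a transcript was 42.2%, and 65.4% of the solute carrier genes were in both assemblies and 23.5% had a full chain. Of 12 genes listed for bone cells, 11 had a transcript, 10 of these in both assemblies and 4 with a full chain, and none was found under a name of Slc39a13. One of the 11, Slc37a2, a sugar phosphate transporter of osteoclasts and macrophages, was present under an older name with 4 models, 1 of them shared. Of 8 genes listed for red cell precursors, 7 had a transcript, all in both assemblies, and 4 had a full chain. Among these, the mitochondrial iron importer Slc25a37 had a longest model of 4 exons and 4262 bp, and Slc25a39 had 5 models, both under older names. Of the 5 models of Slc25a39, 4 were full chains and 3 were shared. Of 6 genes for macrophages and neutrophils 5 were present, 4 in both assemblies and 3 with a full chain. Of 7 genes for skeletal muscle and fat, Slc2a4, Slc25a4, Slc16a3, Slc27a1 and Slc25a20 were present, all 5 in both assemblies, and 2 with a full chain.

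Lists were also written for tissues other than bone and marrow. Of 10 genes listed for the kidney, 1 was present, Slc3a1, a heavy chain for cystine transport, with a single-exon model of 478 bp in the first assembly that was classed as a possible fragment of unspliced RNA. Of 7 genes listed for the liver, none was found. Of 10 genes for neurons and glia 2 were present, Slc6a4 and Slc1a3, a glutamate transporter of glia with 4 models and 205 exon bases in common. The annotation joins all cells of the femur samples, so a gene found cannot be assigned to a cell type, and fewer cells of a type cannot be told apart from less RNA per cell.

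Apart from the named transcripts, 40 transcripts without a gene name were recorded against 29 solute carrier reference genes. Of these, 28 were classed as lying within introns of reference transcripts of 20 genes and 12 as antisense to exons of 10 genes, 27 had a single exon, and 0 were shared by the assemblies. The same counts over all reference genes are not given, so these values describe the set only. Slc22a12, the renal urate exchanger, and Slc6a2, the noradrenaline transporter, had an intronic model and no named transcript. New genes lay within 5 kb of 3 solute carrier genes, Slc15a4, Slc16a10 and Slc38a1. The share of all named genes with a new gene that near is not given, so no comparison is made.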

How the data were processed

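Total RNA of femurs was sequenced in 1 OVX and 1 SHAM sample per the labels. The deposited files hold transcript models that the authors built with StringTie after alignment with HISAT2 (versions not given in the sources used here), and a list of 1507 new genes; their values are positions and attributes, and not counts, so no fit across genes, replicate left out or interval of depth was possible. The processing notes list rn4 and the files name no build, but the names of the annotation's sequences and the rCG series of gene names (35.6%) point to another rat assembly, so positions are printed as given, 1-based, and should not be read as rn4. The 21 sequences were assigned to chromosomes by the genes on them (99.1% of matched genes fell on 1 chromosome per sequence). The first and second assembly were read from the numbering, which runs 4 times over each sequence, with 0 shared transcripts in the last 2 runs. Transcripts were joined by gene name. Names were matched to RefSeq GRCr8 symbols, which placed 134 genes under a current and 2 under an older symbol. Genes named are the 10 with the most transcripts, the 10 with the most exons in a shared full chain, those of the cell type lists, those with rare classes or a shared locus, the 5 with the most transcripts among genes of 1 assembly, any in counts of 5 or fewer, and others chosen after their values were seen as examples of their substrate group. The genes and lists were chosen with earlier results of these data known. Joins and counts were tested on simulated annotations. Python 3.11.15 was used. The models of 1 gene counted in its groups are not reported here.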

Additional observations from a re-analysis of the deposited data

How the results depend on the processing

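Of 60 values recomputed under 10 alternatives for 6 results, 50 stayed within the interval of the reported value or, for the number of genes, within a factor of 1.5. With contained transcripts left out, 72 genes remained, 45.8% of them in both assemblies and 44.4% with a full chain, 17.5% of transcripts were shared, the median number of transcripts was 1, and the longest model had a median of 5 exons. With transcripts of 500 bp or more, 32.6% of genes had a full chain, 13.5% of transcripts were shared and the longest model had a median of 6 exons. Both alternatives remove contained pieces or short models by construction. With names without an ending for predicted genes, 73.7% of genes were in both assemblies; the cause was not tested. No paired analysis was possible because each group has 1 sample and no value belongs to either. The alternatives for expression were not run, since the files hold no levels. Where a transcript or exon is missing, the depth that could have shown it is unknown.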
